A study of Mus musculus with 118 samples.

Results

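T-box genes encode transcription factors that share the T-box, a DNA-binding domain first described in Brachyury, and 10 of them were examined here (T, also called Tbxt, Eomes, Tbx1, Tbx2, Tbx3, Tbx4, Tbx5, Tbx6, Tbx18 and Tbx20). The members were given by name, with earlier results of these data known, and they are 10 of the 26182 mouse genes with a curated RefSeq transcript. Each gene was represented by the window of 2500 bp to either side of every curated transcription start site (TSS) and by its gene body, and these were compared with peaks of RING1B, SUZ12 and PCGF2. The other 7 T-box genes of the mouse (Tbr1, Tbx10, Tbx15, Tbx19, Tbx21, Tbx22 and Mga) served as the rest of the family.

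The series holds 118 samples in 42 groups from mouse embryonic stem cells (ESCs), made to ask what the catalytic activity of Polycomb repressive complex 1 (PRC1) contributes to Polycomb function. The lists used here came from calibrated ChIP-seq, in which human HEK293T cells, an embryonic kidney line, are mixed in before immunoprecipitation as a reference. PRC1CPM cells (clone 41, strain E14) carry Ring1a with the substitutions I50A and D53K in its endogenous locus, a Ring1b allele that switches from wild type to I53A and D56K, and ERT2-Cre at Rosa26. PRC1CKO cells (clone B9, strain E14) lack Ring1a, have floxed Ring1b and carry the same ERT2-Cre. Peaks were called in untreated cells, in which wild-type RING1B was present, while neither line had a catalytically active RING1A. PRC1CKO cells treated with 4-hydroxytamoxifen, which deletes Ring1b, entered at 1 step, since RING1B peaks that did not lose signal there had been dropped from the list. Untreated PRC1CPM cells gave 3 samples for each of the factors, and untreated PRC1CKO cells gave 3 samples for SUZ12. RING1B samples of PRC1CKO cells, on which the RING1B list also rests, are not in this series. The paper took them from earlier published data. Each line is 1 clone. Values from treated samples were not analysed here.

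RING1B or RING1A, together with a PCGF protein, forms the catalytic core of PRC1, which ubiquitylates histone H2A. PCGF2 is a core part of the canonical form of PRC1 in ESCs, although variant forms of PRC1 can also contain it. SUZ12 is a core subunit of PRC2, which methylates histone H3 at lysine 27, and both complexes occupy CpG-rich promoters of developmental regulators in ESCs. T-box factors specify the primitive streak and mesoderm and later pattern the heart, the limbs and the pharyngeal arches, which ESCs have not yet formed.

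The deposited lists held 18643 RING1B, 7438 SUZ12 and 3680 PCGF2 peaks, as start and end positions with no height, no replicate and no read depth. A count of genes or a width therefore has no error between replicates, and no test was possible. Because calling differed from list to list, each width is set against the background of its own list.

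Of the 10 T-box genes, 9 carried RING1B at a promoter, 9 carried SUZ12 and 9 carried PCGF2, and these were the same 9 genes. Among all curated genes the shares were 53.2% for RING1B, 24.8% for SUZ12 and 13.5% for PCGF2, and 13.4% had all 3. When only the 11505 genes with a CpG-rich TSS were counted, the shares were 88.8% for RING1B, 40.4% for SUZ12 and 23.0% for all 3. Every curated TSS of the 9 genes lay inside a peak of each list, including the 3 start sites of Tbx1, the pair at Tbx3 and the pair at Tbx4. Tbx6 was the exception, with no peak of any list at its promoter or over its gene body.

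Promoter sequence was available from the RefSeq promoter table (GRCm38.p6) for 7 members, T, Eomes, Tbx1, Tbx4, Tbx6, Tbx18 and Tbx20. The 250 bases upstream of the TSS are shown for 2 members with a CpG-rich start and all 3 factors (Tbx18 and Tbx20), for Tbx4, whose start was occupied by all 3 without being CpG-rich, and for Tbx6 and Tbx10, which had no peak. Tbx18 lies at chr9:87731261-87731510 on the minus strand, Tbx20 at chr9:24774304-24774553 on the minus strand, Tbx4 at chr11:85896515-85896764 on the plus strand, Tbx6 at chr7:126781233-126781482 on the plus strand and Tbx10 at chr19:3992502-3992751 on the plus strand. Each is written 5′ to 3′ with CpG dinucleotides in capitals.
Tbx18: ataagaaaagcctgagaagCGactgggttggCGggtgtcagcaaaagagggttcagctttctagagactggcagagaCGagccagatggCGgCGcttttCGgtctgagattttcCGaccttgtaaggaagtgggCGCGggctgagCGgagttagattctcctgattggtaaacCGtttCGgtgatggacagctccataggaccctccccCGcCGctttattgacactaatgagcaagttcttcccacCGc
Tbx20: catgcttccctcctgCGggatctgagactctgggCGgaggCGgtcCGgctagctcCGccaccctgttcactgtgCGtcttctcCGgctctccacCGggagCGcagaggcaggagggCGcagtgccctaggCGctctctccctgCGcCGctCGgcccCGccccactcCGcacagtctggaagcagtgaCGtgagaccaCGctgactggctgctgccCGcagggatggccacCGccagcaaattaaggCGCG
Tbx4: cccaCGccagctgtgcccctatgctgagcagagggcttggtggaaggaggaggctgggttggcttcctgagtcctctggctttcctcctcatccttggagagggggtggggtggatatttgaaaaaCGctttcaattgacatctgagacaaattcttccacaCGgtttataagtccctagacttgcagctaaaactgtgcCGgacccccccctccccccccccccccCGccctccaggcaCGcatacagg
Tbx6: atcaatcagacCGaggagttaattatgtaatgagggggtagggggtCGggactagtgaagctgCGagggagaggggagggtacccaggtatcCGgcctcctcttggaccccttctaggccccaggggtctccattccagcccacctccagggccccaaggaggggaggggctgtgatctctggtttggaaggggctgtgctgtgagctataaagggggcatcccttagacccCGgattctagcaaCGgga
Tbx10: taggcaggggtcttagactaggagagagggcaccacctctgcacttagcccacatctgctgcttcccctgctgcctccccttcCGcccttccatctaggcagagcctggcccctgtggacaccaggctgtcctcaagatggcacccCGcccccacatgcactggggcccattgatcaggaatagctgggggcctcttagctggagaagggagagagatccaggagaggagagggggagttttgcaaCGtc

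These windows held 15 CpG at Tbx18, 22 at Tbx20, 6 at Tbx4, 6 at Tbx6 and 3 at Tbx10, against a median of 6 (interquartile range 2 to 16) over 32851 mouse promoters. The Tbx4 window belongs to the downstream start site of that gene, which lay inside the same peaks as the upstream one. At that downstream start Tbx4 had the same number of CpG as Tbx6, with peaks at Tbx4 and none at Tbx6. The first Tbx4 start was richer, with 29 CpG in the 500 bp centred on it. The equal counts therefore do not make Tbx4 as poor in CpG as Tbx6. The core of the T-box recognition sequence, GGTGTG on either strand, was found in 19.0% of the promoters of 300 bp in the table and in 0 of the 7 members. The longer form AGGTGTGA was found in 1.28% of promoters and in 0 members. Both motifs overlap, since the shorter is contained in the longer.

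**Figure D1:**
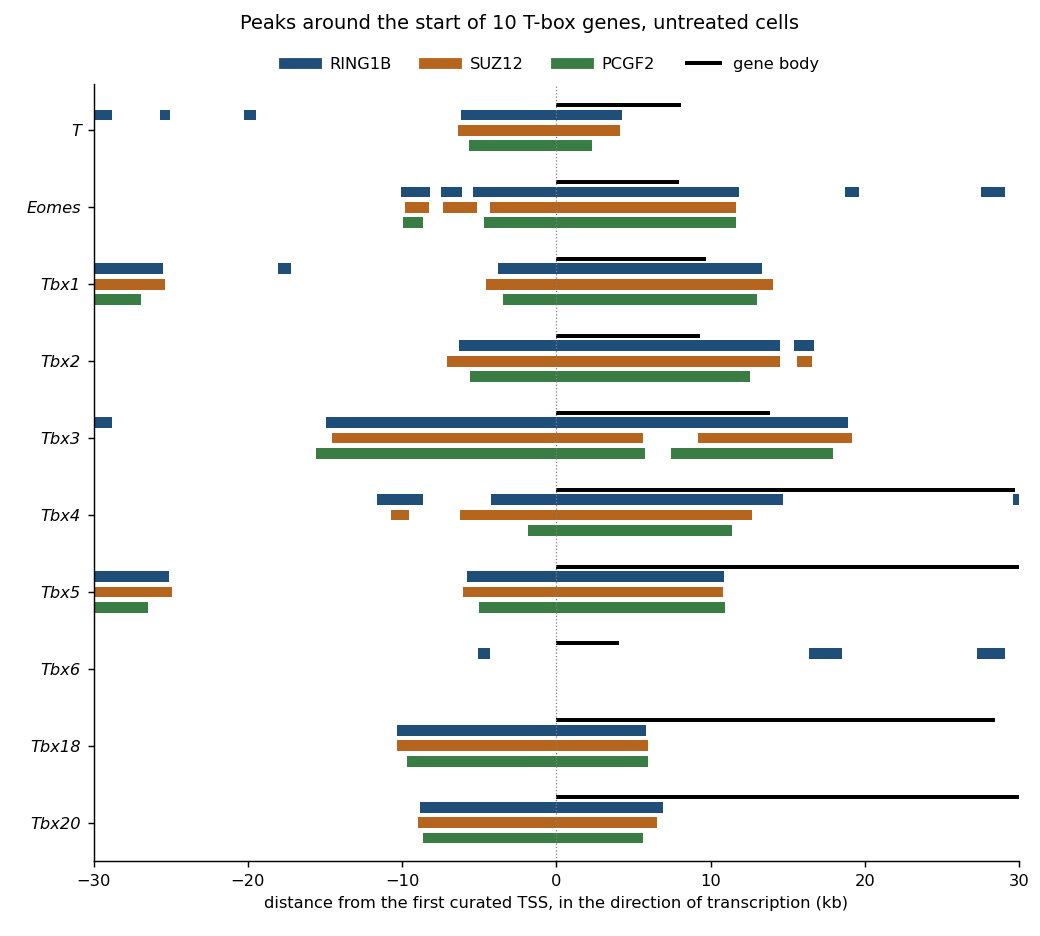
Peaks of RING1B (blue), SUZ12 (brown) and PCGF2 (green) within 30 kb of the first curated TSS of each T-box gene, drawn to scale in the direction of transcription (x axis, kb), with the gene body as a black line. A broad block of all 3 factors covers the start of 9 genes, and Tbx6 has RING1B peaks only at a distance.

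Brachyury, encoded by T, drives mesoderm and notochord formation, and it had the narrowest domain of the 9. Its RING1B peak was 10423 bp wide (chr17:8428246-8438668, mm10), its SUZ12 peak 10476 bp and its PCGF2 peak 7949 bp. The RING1B peak reached 6177 bp upstream of the TSS and 4245 bp downstream, and it ended 3828 bp before the end of the gene. Thus 52.6% of the T gene body lay under RING1B and 28.4% under PCGF2, the PCGF2 peak stopping 1952 bp short of the RING1B peak on the downstream side. Eomes, which is required in the trophoblast and for definitive endoderm, had a wider domain with a RING1B peak of 17277 bp (chr9:118472770-118490046), a SUZ12 peak of 15953 bp and a PCGF2 peak of 16348 bp. All 3 covered the whole Eomes gene and ran past its end, RING1B by 3914 bp. SUZ12 was split upstream of Eomes, where a gap of 826 bp inside the RING1B peak separated the promoter peak from a second SUZ12 peak of 2226 bp. The 2 gastrulation regulators thus differed in how far the domain followed the gene, although their gene bodies were of similar length (8074 bp for T and 7944 bp for Eomes).

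Tbx1, Tbx18 and Tbx20, which belong to the Tbx1 subfamily together with Tbx10, Tbx15 and Tbx22, act in the pharyngeal arches, heart or somites. Tbx1, the main gene behind the heart and arch defects of DiGeorge syndrome, was covered over its whole length, by a RING1B peak of 17118 bp (chr16:18577335-18594452), a SUZ12 peak of 18610 bp and a PCGF2 peak of 16451 bp. Tbx18, a regulator of the sinus node and of somites, had peaks of 16146 bp for RING1B (chr9:87725420-87741565), 16293 bp for SUZ12 and 15626 bp for PCGF2. Tbx20, which acts in the developing heart chambers, had peaks of 15787 bp for RING1B (chr9:24767378-24783164), 15470 bp for SUZ12 and 14286 bp for PCGF2. The 3 domains were close in width and lay differently on their genes. At Tbx1 RING1B reached 3781 bp upstream and 13336 bp downstream of the first TSS, whereas at Tbx18 it reached 10305 bp upstream and 5840 bp downstream, and at Tbx20 8861 bp and 6925 bp. As Tbx18 and Tbx20 are long genes (28461 bp and 53492 bp), RING1B covered 20.5% and 12.9% of their bodies.

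Tbx2, Tbx3, Tbx4 and Tbx5 make up the subfamily that patterns the limbs and heart, with Tbx2 and Tbx3 acting as repressors, Tbx4 in the hindlimb and Tbx5 in the forelimb and heart. Tbx3 had the widest peak of the 10 genes, a RING1B peak of 33872 bp (chr5:119655900-119689771) that ranked 21 by width among all RING1B peaks. The RING1B peak of Tbx2 was 20783 bp wide (chr11:85826322-85847104), with SUZ12 at 21600 bp and PCGF2 at 18151 bp, and it covered the whole gene. Tbx4 had a RING1B peak of 18910 bp (chr11:85882149-85901058), a SUZ12 peak of 18947 bp and a PCGF2 peak of 13199 bp. PCGF2 there covered 69.8% of the RING1B peak, the lowest share of the 9 genes, and it stopped 2389 bp short of RING1B upstream and 3322 bp short downstream. Tbx4 also had a second RING1B peak of 3520 bp at the end of the gene (chr11:85915961-85919480), with a SUZ12 peak of 1817 bp inside it (chr11:85917371-85919187) and no PCGF2 peak. Tbx5 had peaks of 16696 bp for RING1B (chr5:119828845-119845540), 16853 bp for SUZ12 and 15924 bp for PCGF2. A separate RING1B peak of 1068 bp and a SUZ12 peak of 1192 bp lay inside the Tbx5 gene, about 31.9 kb and 31.5 kb after the TSS, without PCGF2.

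Tbx6, needed for paraxial mesoderm and somite formation, had no peak within 2500 bp of its TSS. The nearest RING1B peak was 761 bp wide (chr7:126776422-126777182), 4301 bp upstream of the start and at the promoter of Ypel3. The nearest SUZ12 peak lay 40795 bp away, at the promoter of Tlcd3b, and the nearest PCGF2 peak 244669 bp away. The absence of a peak does not show that the factors were absent, since weak binding may fall below the calling threshold and the lists hold no signal.

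**Figure D2:**
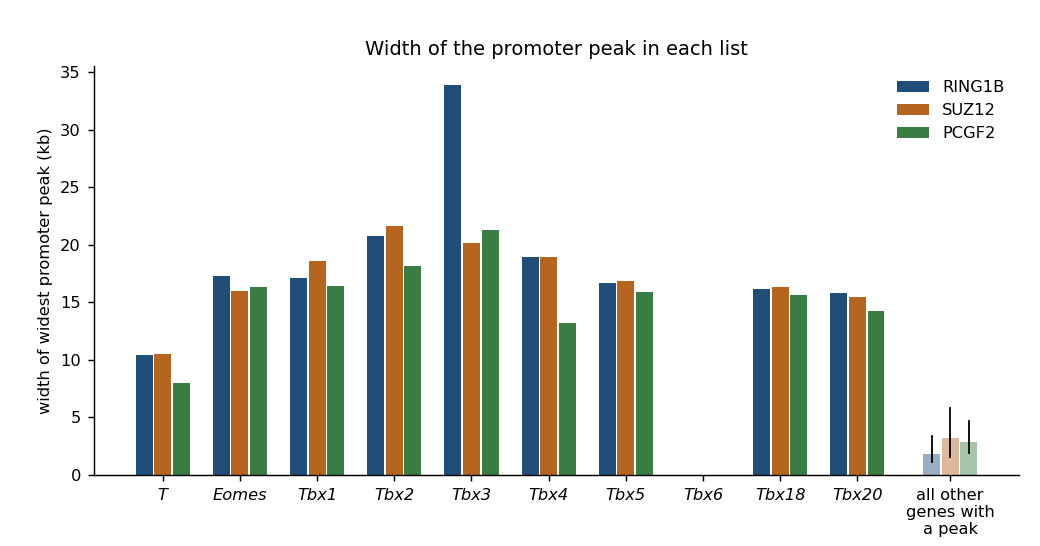
Width in kb (y axis) of the widest promoter peak of RING1B, SUZ12 and PCGF2 at each T-box gene, beside the median over all other genes with a peak of that list (pale bars, with black lines for the interquartile range). The 9 occupied genes stand above the interquartile range in every list, Tbx3 carries the widest RING1B peak (33.9 kb), and the bars of Tbx6 are at 0.

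Over the 9 genes the median RING1B width was 17118 bp (10423 to 33872), against 1808 bp (interquartile range 1089 to 3365) over the 13908 other genes with a promoter peak. Of those other genes, 592, or 4.26%, had a RING1B peak at least as wide as that of T. Against the 3496 other genes with all 3 factors, whose median was 4904 bp (3390 to 7520), 545 genes or 15.6% reached the width of T. Such counts are of genes, so a wide peak at several promoters counted once for each gene. Among the 18643 RING1B peaks themselves, that of T ranked 374 by width. The median SUZ12 width was 16853 bp (10476 to 21600) at the T-box genes and 3226.5 bp over other genes with a SUZ12 peak. The median PCGF2 width was 15924 bp (7949 to 21321) at the T-box genes and 2905 bp elsewhere, where 13.6% of genes with a PCGF2 peak reached the width of T. The T-box genes therefore lay in the upper part of each distribution, and between 476 (PCGF2) and 592 (RING1B) other genes had peaks at least as wide as that of T in the same list.

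Most SUZ12 and PCGF2 edges, counted 1 by 1, lay within 1 kb of the RING1B edge. T, Eomes, Tbx2, Tbx4 and Tbx20 each had at least 1 edge farther away, up to 3322 bp for PCGF2 at Tbx4. Edges were taken as the outermost ends of all peaks of a factor that overlapped the RING1B promoter peak, which pooled 2 SUZ12 peaks at Eomes and 2 peaks of each factor at Tbx3. On this measure SUZ12 reached beyond RING1B on the upstream side at 8 of 9 genes, with a median of 248 bp, and on the downstream side at 4 of 9, with a median of -91 bp. The upstream count included Eomes only through its second SUZ12 peak, as the SUZ12 promoter peak there ended 1096 bp inside RING1B. With the promoter peak alone, SUZ12 reached farther upstream at 7 of 9 genes and farther downstream at 3 of 9. At Tbx3 the promoter peaks alone ended 13287 bp (SUZ12) and 13161 bp (PCGF2) inside RING1B downstream. Of the 18 pooled SUZ12 edges, 15 lay within 1 kb of the RING1B edge. PCGF2 ended inside RING1B on both sides at 6 of 9 genes, with a median of -598 bp upstream and -959 bp downstream, and 13 of its 18 edges lay within 1 kb. It reached past RING1B upstream at Tbx3, by 610 bp, and downstream at Tbx5 and Tbx18, by 32 bp and 78 bp. The share of the RING1B peak under PCGF2 had a median of 92.3% (69.8% to 96.3%) at the T-box genes and 64.8% (interquartile range 51.7% to 79.0%) at other genes with all 3. Under SUZ12 the shares were 98.7% and 99.1%. The other genes had narrower RING1B peaks (median 4904 bp) and were not matched for width. How far the contrast in PCGF2 share follows width was therefore not tested. Edges were measured at T-box genes only, so whether other genes with all 3 factors have the same offsets was not tested. Since RING1B and SUZ12 peaks were kept from 2 cell lines and PCGF2 peaks from 1, how far the calling rules set these offsets was not tested.

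Whole gene bodies were covered by RING1B at 4 of the 9 genes, Eomes, Tbx1, Tbx2 and Tbx3, which were between 7944 bp and 13863 bp long. Of the 309 other genes in that range of length with all 3 factors at a promoter, 35 (11.3%) were covered entirely. The range was set by the 4 covered genes themselves, and the 309 genes were not matched for peak width. T fell in the same range of length and was covered over 52.6%. The domain reached farther downstream of the first TSS than upstream at 6 genes and farther upstream at T, Tbx18 and Tbx20. The same was not counted over other genes, so these numbers describe the 9 genes only. Across the 9 genes RING1B reached between 3781 bp and 14962 bp upstream. By annotation, coding sequence made up between 2.98% of the promoter peak at Tbx4 and 12.3% at Eomes. Introns took from 24.5% at Eomes to 81.3% at Tbx3, and the space between genes from 1.07% at Tbx3 to 63.8% at Tbx18. Within the Tbx3 peak the annotation also placed noncoding genes on the opposite strand, Tbx3os1 over the upstream part with a TSS at position 119671508 and Tbx3os2 over the downstream part, which left little sequence between genes. Noncoding genes also started inside the peaks of Tbx2 (2610027K06Rik) and Tbx5 (Gm5563), so peaks there cannot be assigned to the T-box gene alone.

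At Tbx3 a single RING1B peak was paired with 2 SUZ12 peaks and 2 PCGF2 peaks. SUZ12 covered 20162 bp around the promoter (chr5:119656323-119676484) and 9935 bp over the end of the gene (chr5:119680068-119690002), with 3583 bp between them. PCGF2 covered 21321 bp (chr5:119655290-119676610) and 10542 bp (chr5:119678271-119688812), with 1660 bp between them. The PCGF2 gap lay entirely within the SUZ12 gap, and both began between the fifth and sixth of the 9 merged exons. Exon 6 lay under neither factor, exon 7 lay under PCGF2 and not SUZ12, and the remaining 7 exons lay under both. Introns made up 93.6% of the SUZ12 gap and 95.4% of the PCGF2 gap. The sequence of the gaps held few CpG, with 7.54 per kb in the SUZ12 gap and 8.43 per kb in the PCGF2 gap, against 26.6 and 29.2 per kb in the flanking SUZ12 peaks. Sequence with few CpG also lay under unbroken peaks of both factors. There the bins of 500 bp centred 5.75, 5.25, 4.75 and 4.25 kb upstream of the TSS held 0, 2, 6 and 2 CpG. Whether CpG content bears on the gaps was not tested. Repeats made up 27.9% of the SUZ12 gap and 17.6% of the whole RING1B peak. When peaks of a list separated by less than 5 kb were joined, the widths at Tbx3 became 33680 bp for SUZ12 and 33523 bp for PCGF2, beside 33872 bp for RING1B.

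**Figure D3:**
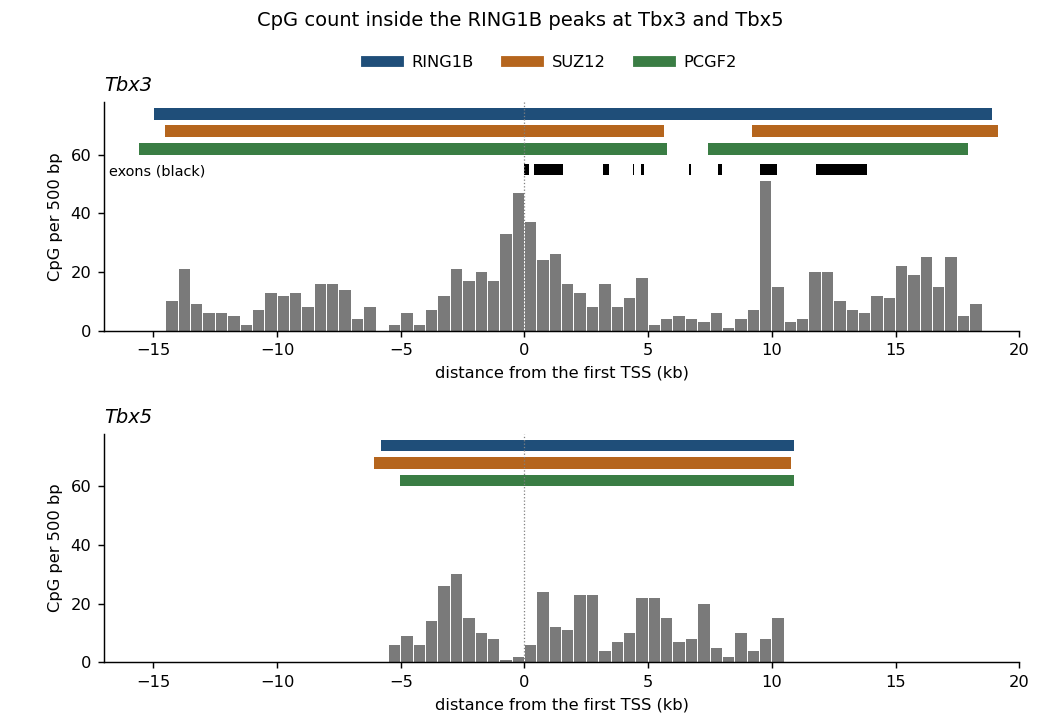
Number of CpG in consecutive bins of 500 bp (grey bars, y axis) inside the RING1B peak of Tbx3 (top) and Tbx5 (bottom) by distance from the first TSS (x axis, kb), with the extent of RING1B, SUZ12 and PCGF2 peaks as coloured bars and the Tbx3 exons in black. At Tbx3 the break in SUZ12 and PCGF2 falls over bins with few CpG between the TSS and the bin of 51 CpG. Bins with as few CpG, such as that centred 5.75 kb upstream (0 CpG), lie under unbroken peaks. At Tbx5 the bins on either side of the TSS hold 2 and 6 CpG.

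CpG content at the start site varied widely among genes that all carried a broad domain. CpG observed/expected (the CpG count relative to that expected from the C and G content) within 500 bp of the TSS, taking the highest value where there were several start sites, was 1.03 at Tbx1, 0.916 at Tbx3, 0.765 at Tbx2, 0.754 at Tbx18, 0.647 at T and 0.628 at Tbx20. These 6 genes met both criteria for a CpG-rich TSS, an observed/expected of at least 0.6 and a GC content of at least 50%. Eomes (0.587), Tbx4 (0.481) and Tbx5 (0.121) did not meet them and still had all 3 factors over more than 10 kb. Tbx6, with 0.330, lay between Tbx4 and Tbx5 and had none. The median was 0.637 over the 10 genes and 0.538 (interquartile range 0.225 to 0.771) over all other genes. Over other genes with all 3 factors it was 0.733 (0.611 to 0.841), beside 0.647 over the 9 T-box genes with peaks.

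At Tbx5 the 500 bp centred on the TSS held 0 CpG, the lowest count of the 9 genes, and the other 8 held between 12 at Eomes and 40 at Tbx3. The densest bin in the Tbx5 domain held 30 CpG and was centred 2.75 kb upstream of the TSS, and 8 of its 32 bins held at least 20 CpG. That densest bin also held a TSS of the noncoding gene Gm5563 (position 119831986), so the domain did not lack a start site near dense CpG. At Tbx20 the densest bin (34 CpG) was centred 6.75 kb upstream, and at Tbx1 (84 CpG) and Tbx4 (33 CpG) it was centred 3.75 kb downstream. At T, Eomes, Tbx2 and Tbx18 it lay within 1 kb of the first TSS. Across whole RING1B peaks the 9 domains held 19.8 (Tbx4) to 38.3 (Tbx2) CpG per kb, with a median of 25.6, and between 4 (T) and 17 (Tbx3) separate CpG-dense stretches. The 10 kb on either side of the peaks held 6.2 to 12.1 CpG per kb. RING1B peaks of at least the width of that at T at other genes with all 3 factors (328 peaks) had a median of 29.1 CpG per kb and 7 stretches, beside 9 stretches at the T-box genes.

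**Figure D4:**
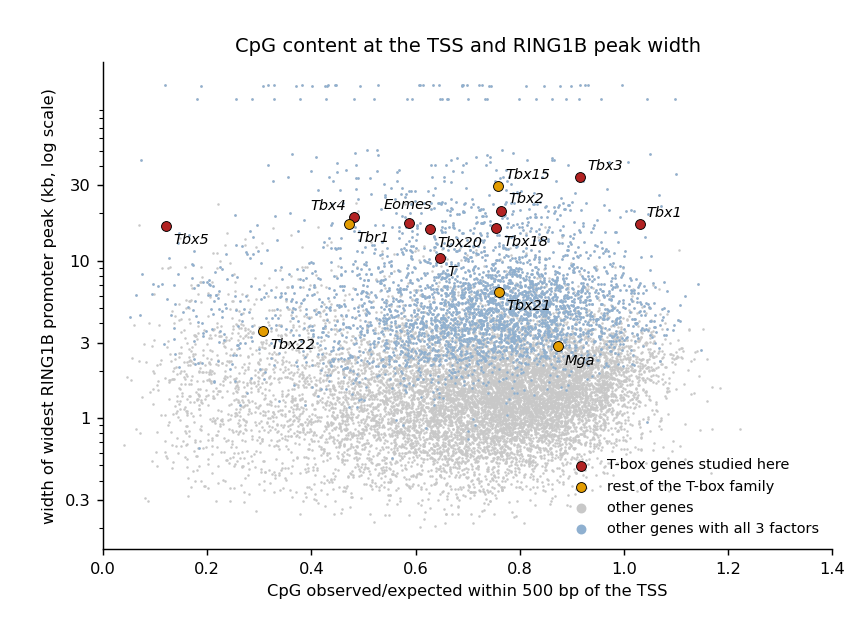
CpG observed/expected within 500 bp of the TSS (x axis) and width of the widest RING1B promoter peak in kb (y axis, log scale) for T-box genes with a peak (red, studied here; orange, rest of the family) over all other genes with a RING1B peak (grey, or pale blue where SUZ12 and PCGF2 were also present). The red points lie between 10.4 and 33.9 kb at CpG values from 0.121 (Tbx5) to 1.03 (Tbx1).

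Of the 7 other T-box genes, 3 had all 3 factors and the others fell into further classes. Tbr1, a regulator of cortical neurons and the closest relative of Eomes, had a RING1B peak of 17087 bp, a SUZ12 peak of 16806 bp and a PCGF2 peak of 12911 bp. Tbx15, which acts in the skeleton and skin, had peaks of 29600, 30092 and 29234 bp, and Tbx21, which encodes the T helper cell regulator T-bet, had narrower peaks of 6289, 9376 and 4137 bp. Tbx22, a gene of palate development, had RING1B (3579 bp) and SUZ12 (698 bp) without PCGF2 around its downstream start sites, a class that held 11.1% of all curated genes. Mga, which encodes a partner of MAX found in a variant PRC1, had a RING1B peak of 2847 bp alone, like 28.6% of all curated genes. Tbx10 and Tbx19, the pituitary factor, had no peak, like 46.5% of curated genes. Mga had a CpG observed/expected of 0.873 and Tbx10, Tbx19 and Tbx22 had 0.160, 0.280 and 0.308. Over the 17 genes of the family, 12 had all 3 factors, a class that held 13.4% of all curated genes. Of those 12, 8 had a CpG-rich TSS, beside 2642 of the 3508 curated genes with all 3 factors. The share with a CpG-rich TSS was thus near that over all such genes.

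Tbx3 with Tbx5, and Tbx2 with Tbx4, are neighbours in the genome, remnants of an ancient duplication of a linked pair. The start sites of Tbx3 and Tbx5 were 163801 bp apart and those of Tbx2 and Tbx4 53752 bp. In both pairs each gene had its own domain, with 139073 bp between the RING1B peaks of Tbx3 and Tbx5 and 35044 bp between those of Tbx2 and Tbx4. Between Tbx3 and Tbx5 lay 4 further RING1B peaks, 3 SUZ12 peaks and 1 PCGF2 peak. The largest was a block of all 3 factors (RING1B 15448 bp, SUZ12 15553 bp, PCGF2 14404 bp) that ended 25.1 kb before the Tbx5 TSS and covered another promoter of Gm5563, apart from the one inside the Tbx5 domain. Its CpG density was 22.9 per kb, beside 23.7 per kb in the Tbx5 domain. Between Tbx2 and Tbx4 lay 2 RING1B peaks of 1336 and 2987 bp and 2 SUZ12 peaks of 991 and 1194 bp, and no PCGF2 peak.

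**Figure D5:**
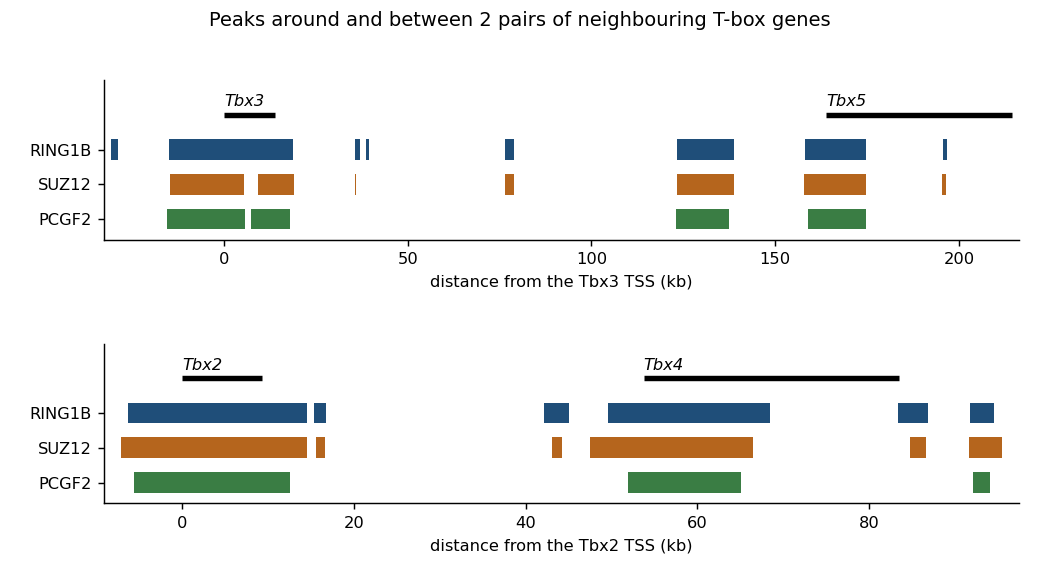
Peaks of RING1B, SUZ12 and PCGF2 (rows) along the Tbx3 to Tbx5 interval (top) and the Tbx2 to Tbx4 interval (bottom), to scale by distance from the TSS of the first gene (x axis, kb), with gene bodies in black. Each gene has its own block of all 3 factors, and a further block lies 25.1 kb before the Tbx5 TSS.

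Other regulators that act with T-box factors were counted in the same way. Among all curated genes the shares were 53.2% for RING1B, 24.8% for SUZ12, 13.5% for PCGF2 and 13.4% for all 3. Of 15 gastrulation genes, 14 had a RING1B peak, 12 a SUZ12 peak and 11 a PCGF2 peak, and 11 had all 3, with a median RING1B width of 7.65 kb over those with a peak. Foxa2, a regulator of endoderm and node, had a RING1B peak of 22.8 kb, Lhx1 of 19.0 kb and Fgf8 of 15.0 kb. Mesp1, which marks cardiac mesoderm, had 5.18 kb and Mixl1 4.19 kb. Nodal had RING1B alone over 1.83 kb, and Msgn1, which like Tbx6 acts in presomitic mesoderm, had no peak. Of 11 heart genes 8 had all 3 factors, with a median RING1B width of 19.5 kb, led by Hand2 at 45.6 kb, Isl1 at 23.4 kb and Nkx2-5 at 22.8 kb. The 3 without a peak were Nppa, Gja5 and Bmp10, which encode a natriuretic peptide, a gap junction protein and a growth factor made in heart muscle. Of 6 limb genes 5 had all 3, with a median RING1B width of 12003 bp over the 6. Among 10 genes that are active in ESCs, 6 had a RING1B peak and 2 (Klf4 and Esrrb) had all 3 factors, with a median RING1B width of 3.13 kb. These 2 counts were near the shares of 53.2% and 13.4% over all curated genes. RING1B peaks as wide as that of T were found at 6 of the gastrulation genes, 7 of the heart genes, 3 of the limb genes and 0 of the genes active in ESCs. Only 4.26% of genes outside the family with a RING1B promoter peak reached that width, so 0 in a short list carries little weight.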

How the data were processed

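Peak positions were deposited by the authors as 3 BED lists in base pairs, with no score, signal or other measurement. Reads had been mapped by the authors (Bowtie 2) against a joint mm10 and hg19 index, stripped of duplicates (Sambamba) and used to call broad peaks over Input (MACS2). RING1B and SUZ12 peaks came from merged replicates of untreated PRC1CPM and PRC1CKO cells and were kept if found in both. RING1B peaks also had to lose signal on tamoxifen in PRC1CKO cells. PCGF2 peaks were called per replicate of untreated PRC1CPM cells and kept if found in all. Read depth was unknown from the lists.

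From these positions, written counting from 1, overlaps of at least 1 bp with promoters (TSS plus or minus 2500 bp) and gene bodies of curated RefSeq transcripts (GRCm38.p6, the assembly behind mm10) were counted in Python 3.11.15 with NumPy 2.4.6 and pandas 2.3.3, and drawn with matplotlib 3.10.9. The code was tested on simulated peaks. Background genes excluded all 17 T-box genes for widths and CpG values and included them for percentages of genes with a peak. CpG-dense stretches were merged windows of 200 bp with GC of at least 50% and CpG observed/expected of at least 0.6, and repeats were the lower-case bases of the assembly. Named genes were the T-box family, genes starting inside their peaks, the 3 genes most alike in width, and members of lists for gastrulation, heart, limb and ESC activity. Members and lists were chosen with earlier results of these data known. No samples were compared, so no test was made. Alternatives changed the promoter window, transcripts, peak joining, minimum width and overlap.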

Additional observations from a re-analysis of the deposited data

How the results depend on the processing

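Of 39 alternatives over 8 counts, widths and shares, 36 gave the same value or, for counts, one within 1.5 times, and 3 gave another. The count of T-box genes with all 3 factors was 9 with promoter windows of 1000 and 5000 bp, with the TSS itself inside the peak, with predicted transcripts added, with peaks of at least 1 kb and with an overlap of at least 500 bp. With the window of 5000 bp the RING1B count became 10, as the peak at Ypel3 then reached Tbx6. Joining SUZ12 peaks closer than 1 kb or 5 kb raised the median SUZ12 width from 16853 to 18610 bp. The median share of the gene body over the 10 genes was 51.2% under RING1B and 46.8% when SUZ12 peaks were used instead. With the promoter peak alone in place of all overlapping peaks, an alternative chosen after seeing the data, the median SUZ12 edge relative to RING1B moved from 248 to 185 bp upstream and from -91 to -132 bp downstream, and the median PCGF2 edge downstream from -959 to -1282 bp. No paired analysis was possible because replicates were pooled in the peak lists, and no replicate could be left out. The lists hold no depth or height, so differences in binding strength among the 9 genes, and weak binding at Tbx6, could not be seen.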

Other observations

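Smaller peaks surrounded several of the domains. Upstream of T lay 5 RING1B peaks within 50 kb of the gene, between 639 and 1733 bp wide, of which 1, at the promoter of the noncoding gene Gm16702, was matched by a SUZ12 peak and none by PCGF2. Upstream of Eomes a RING1B peak of 1859 bp was matched by SUZ12 (1513 bp) and by PCGF2 (1294 bp), and when peaks closer than 5 kb were joined the Eomes RING1B domain grew from 17277 to 21940 bp. Within 50 kb of Tbx18 there was no other peak of any list. Tbx1 had a wide neighbour that began 25.5 kb upstream of its first TSS, with a RING1B peak of 16869 bp, a SUZ12 peak of 17825 bp and a PCGF2 peak of 12709 bp over the promoters of Gp1bb and Septin5. These genes encode a platelet glycoprotein subunit and a septin.

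The 3 genes outside the family whose peak widths were most like the T-box medians (Euclidean distance over the 3 log2 widths, out of 3496 genes with all 3 factors) were Gm5563, Spag6 and B230323A14Rik. Gm5563 starts inside the Tbx5 domain and its widest peaks are those of Tbx5. Spag6 had peaks of 16923 bp for RING1B, 17263 bp for SUZ12 and 16040 bp for PCGF2, and B230323A14Rik of 17476, 17409 and 16491 bp. Likeness of width says nothing of shared function or control.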
